A study of Oryctolagus cuniculus with 3 samples.

Results

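The genes described here encode the extracellular and core parts of Wnt signalling in rabbit aortic media, the layer of the vessel wall built of smooth muscle. The rule that chose them used names and no values, but it was set with earlier results of these data known. It took every rabbit gene of the deposited table named as a WNT ligand, a frizzled receptor (FZD), a secreted frizzled-related protein (SFRP) or a Dickkopf protein (DKK). To these it added the 12 further genes LRP5, LRP6, WIF1, FRZB, RSPO1, RSPO2, RSPO3, AXIN1, AXIN2, LEF1, TCF7L2 and CTNNB1. This gave 44 of 15248 rabbit genes: 16 ligands, 9 frizzled receptors, 2 co-receptors, 9 secreted antagonists, 3 R-spondins and 5 intracellular components.

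Wnt proteins are secreted lipid-modified ligands that bind a frizzled receptor together with LRP5 or LRP6. In the canonical branch this stops the AXIN complex from degrading beta-catenin (CTNNB1), which then works with LEF1 and TCF factors in the nucleus, where AXIN2 is among its targets and acts as a brake. WNT5A, WNT5B and WNT11 are known mainly for signalling without beta-catenin. Secreted frizzled-related proteins and WIF1 bind ligands, DKK1 and DKK2 bind LRP5 and LRP6, and R-spondins raise the amount of receptor at the cell surface. In the vessel wall the pathway is known for roles in smooth muscle proliferation, matrix production and calcification. The roles given for single genes are known mainly from human and mouse.

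All animals were male JW/CSK rabbits aged 9 months, in 3 groups: non-transgenic on chow (the chow library), non-transgenic fed high cholesterol for 20 weeks (the cholesterol library), and transgenic for the mouse PGC1-alpha gene after the same diet (the transgenic library). PGC1-alpha is a transcriptional coactivator of mitochondrial genes; the labels do not name the promoter that drives the transgene. RNA of 5 rabbits was pooled into 1 library per group, and no value below therefore has a replicate, an error or a p-value. The chow library was run on lane 3 and the others on lane 2 per the labels, so lane and diet cannot be told apart.

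Values are the authors' FPKM (fragments per unit of gene length and of mapped fragments), always given in the order chow, cholesterol, transgenic. Differences are in log2(FPKM + 1), and a difference of at least 1 is called 2-fold. Because of the pseudocount of 1, low genes differ less on this scale than in FPKM. Mouse Ppargc1a was listed at 0, 0 and 12.8 FPKM, which follows the labels. The absolute depth is unknown; relative to chow, the lowest values gave 1.30 times as many fragments for the cholesterol and 1.26 times as many for the transgenic library. In the tissue check, 9 of 9 contractile smooth muscle markers were detected in every library, with a summed level of 28463, 11568 and 15863 FPKM. In bulk tissue, fewer cells of a type and less RNA per cell cannot be told apart, and this holds for every value below.

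Of the 44 genes, 30 averaged 1 FPKM or more over the 3 libraries and 14 did not. The secreted antagonist FRZB, which binds Wnt ligands, had 140.1 FPKM on chow, second to CTNNB1 with 187. Next came FZD2 (46.7 FPKM), DKK3 (41.2 FPKM), LRP6 (40.0 FPKM) and AXIN1 (39.4 FPKM). WNT5B led the ligands at 22.8 FPKM. The 16 ligands summed to 55.6 FPKM on chow, against 128.5 FPKM for the 9 frizzled receptors and 237 FPKM for the 9 secreted antagonists.

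**Figure D1:**
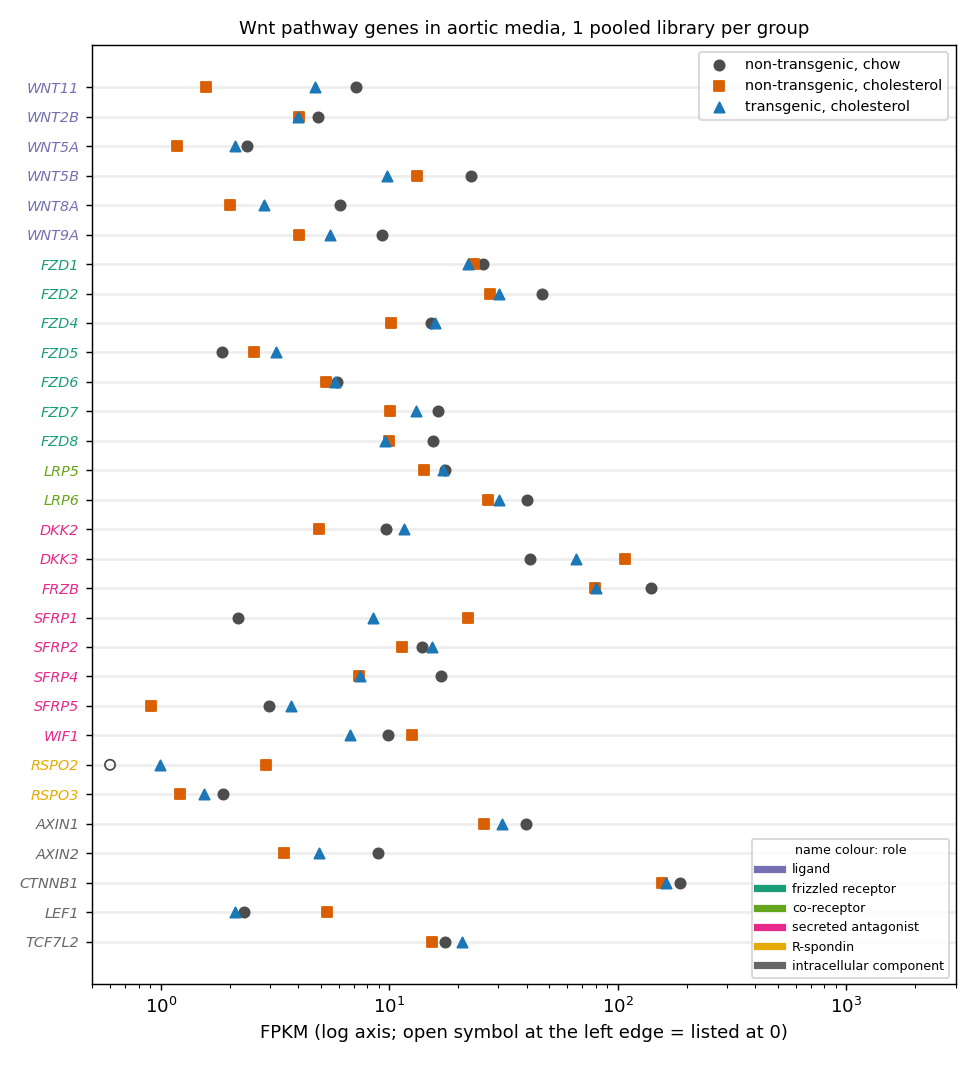
Level of the 30 genes averaging 1 FPKM or more, in each of the 3 pooled libraries (FPKM, log axis); each symbol is 1 library and the colour of the name gives the role. SFRP1 lies at 2.17 FPKM on chow and 22.1 in the cholesterol library, while most other genes lie lower in the cholesterol library than on chow.

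With the cholesterol diet, most of these genes were somewhat lower in non-transgenic media, and a few were higher. SFRP1, a secreted Wnt-binding protein, was 10.2 times its chow level, and DKK3, a secreted Dickkopf protein, 2.61 times. The ligands WNT11, WNT8A and WNT9A, the antagonists SFRP4 and SFRP5, and the feedback inhibitor AXIN2 were at least 2-fold lower. LEF1, a nuclear partner of beta-catenin, was 2.32 times its chow level in FPKM but stayed under 2-fold on the log2(FPKM + 1) scale (0.94).

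By count, 3 of the 30 genes were higher by 2-fold or more with cholesterol, where 15.9% of all 11597 genes averaging 1 FPKM or more were, and 6 were at least 2-fold lower, where 6.99% of all genes were. The difference was below 0 for 24 of the 30, against 48.7% of all genes. Their median difference was -0.54, and that of all genes 0.02. Over all 44 genes the median was -0.29, since the 14 low genes can differ little on this scale. Genes enter the 30 by their mean, so a gene low on chow passed through the libraries where it is high. RSPO2, which with SFRP1 and DKK3 makes up the 3 higher genes, was listed at 0 on chow and passed in this way. With genes listed at 0 in any library left out, 2 of 29 genes were higher and 6 lower. Of all 11306 genes then left, 1657 were higher and 747 lower.

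When transgenic rabbits were set against non-transgenic ones under cholesterol, 3 of the 30 genes were at least 2-fold higher in the transgenic library (SFRP5, WNT11 and DKK2, where 1.7% of all genes were) and 2 were at least 2-fold lower (SFRP1 and LEF1, where 2.1% of all genes were). DKK2 is an antagonist that binds the co-receptors. The difference was above 0 for 21 of the 30, against 48.1% of all genes, with a median of 0.18 where that of all genes was -0.01. Both comparisons use the cholesterol library, so a chance deviation of that library would push them in opposite directions.

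**Figure D2:**
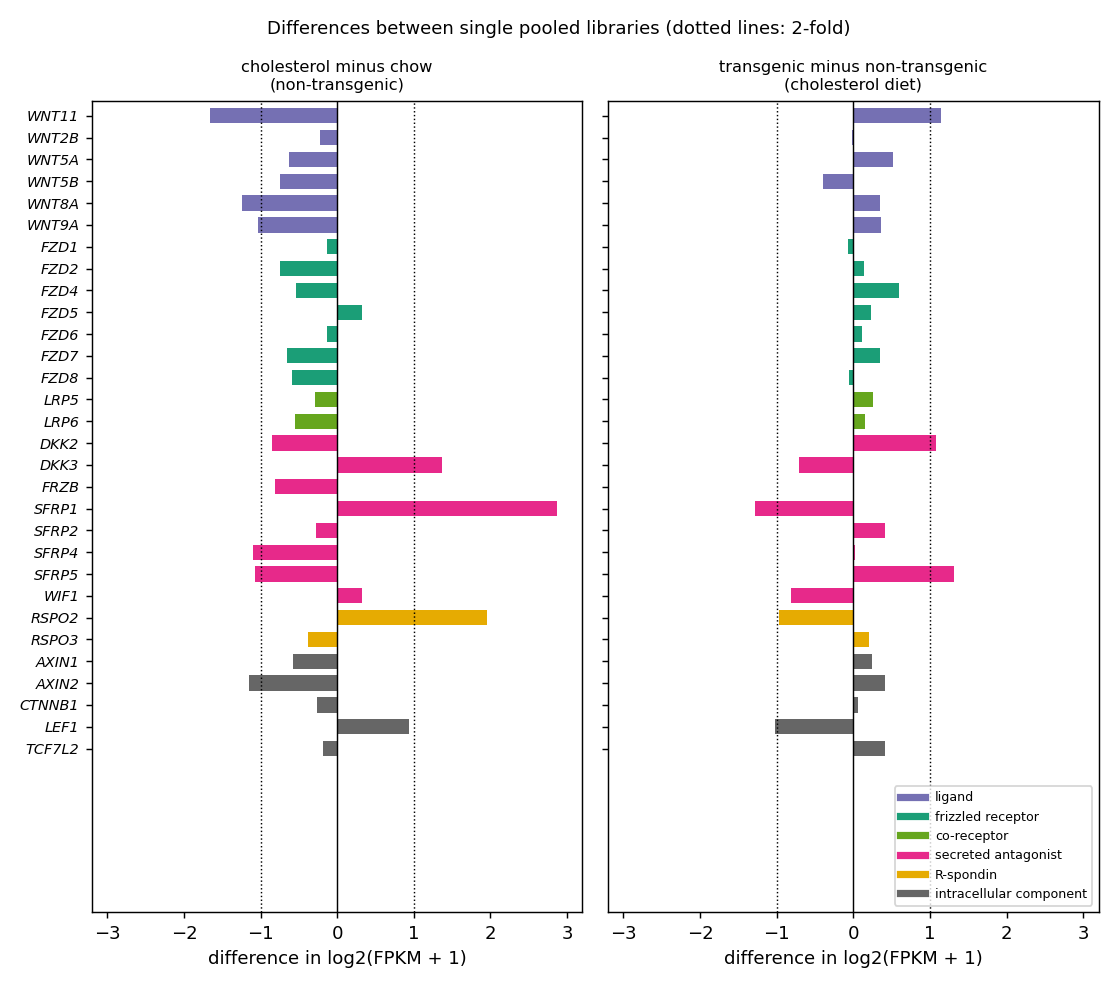
Difference in log2(FPKM + 1) for the 30 genes, cholesterol minus chow on the left and transgenic minus non-transgenic on the right; bars are single differences between pooled libraries, coloured by role, and dotted lines mark 2-fold. SFRP1 reaches 2.87 on the left and -1.29 on the right; both panels share the cholesterol library.

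Among the ligands, 6 of 16 averaged 1 FPKM or more, and these 6 were lower in the cholesterol library than on chow, as were 48.7% of all genes. WNT11, a ligand known mainly for signalling without beta-catenin (chromosome 1, 140610731 to 140630731, OryCun2.0), had 7.13, 1.58 and 4.72 FPKM. The diet difference was -1.66 and the genotype difference 1.15. The cholesterol library was thus the lowest, and the transgenic library lay between it and chow.

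WNT8A, a ligand best known from the embryo (chromosome 3, 20391426 to 20395897), had 6.11, 2.00 and 2.82 FPKM, a diet difference of -1.24. For WNT9A (on an unplaced scaffold) the values were 9.25, 4.03 and 5.48 FPKM, a diet difference of -1.03. Both were lower in each cholesterol-fed library than on chow, with genotype differences of 0.35 and 0.37, under 2-fold.

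The most abundant ligand, WNT5B (chromosome 8, 36029457 to 36046785), had 22.8, 13.2 and 9.77 FPKM. It was the ligand with the lowest value in the transgenic library relative to chow (-1.14), while neither the diet (-0.74) nor the genotype difference (-0.40) reached 2-fold. Its relative WNT5A had 2.38, 1.18 and 2.12 FPKM, lowest in the cholesterol library and nearly level in the other two. WNT2B, known for canonical signalling, had 4.86, 4.03 and 3.98 FPKM and differed little. In the summed ligand level of 55.6, 28.0 and 31.2 FPKM, WNT5B made up 41.0%, 47.0% and 31.3%, and WNT11 12.8%, 5.63% and 15.2%.

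The other 10 ligands (WNT1, WNT2, WNT3A, WNT4, WNT6, WNT8B, WNT9B, WNT10A, WNT10B and WNT16) were low. WNT10B had the highest value, 1.40 FPKM on chow, and 0.40 and 0.92 FPKM in the other libraries. WNT6 was highest in the cholesterol library, at 0.17, 0.84 and 0.25 FPKM. WNT9B was listed at 0 in all 3 libraries, and WNT3A and WNT4 were listed at 0 in both cholesterol-fed libraries.

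For WNT8B, a ligand known from the forebrain, the FPKM values of 0.03, 0.32 and 0.33 stand in the ratio of 1, 14 and 14 fragments once depth is taken into account. These are the smallest whole numbers within 1% of the ratios. As counts they have exact 95% Poisson intervals of 0.03 to 5.57 for 1 and 7.65 to 23.5 for 14, which cover counting error only, do not overlap and compare these libraries, not the conditions. In the same way WNT16 rests on as few as 2, 2 and 1 fragments, WNT1 on 3, 0 and 1, and DKK1 on 2, 1 and 1. At these smallest counts, which are a lower limit, no difference in these 3 genes would be detectable. In these 4 genes 1 FPKM on chow is worth between 15.7 and 33.5 fragments, if the counts are these smallest ones.

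Some members are neighbours in the genome. The annotated spans of WNT1 and WNT10B on chromosome 4 overlap by 1120 bases and share 1 locus in the table, so their low values may not be fully separate. WNT6 and WNT10A lie 7333 bases apart on chromosome 7. DKK2 and LEF1 lie 1012612 bases apart on chromosome 15, and FZD2 and WNT9B 981602 bases apart on chromosome 19. The row of RSPO1 overlaps the gene MANEAL.

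Frizzled receptors stayed within 2-fold on the log2(FPKM + 1) scale, which shrinks the difference of FZD3 (0.82, 0.40 and 0.65 FPKM). None of the 7 receptors averaging 1 FPKM or more differed 2-fold in the diet or the genotype comparison, and 6 of them were lower on the diet. The order on chow was FZD2 (46.7 FPKM), FZD1 (25.7), FZD7 (16.4), FZD8 (15.5), FZD4 (15.2), FZD6 (5.88) and FZD5 (1.85), with FZD3 at 0.82 and FZD9 at 0.46. With no replicates, the order of FZD7, FZD8 and FZD4, which lie close together, cannot be told from noise.

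FZD2 (chromosome 19, 44796461 to 44799838) had the largest diet difference of the receptors, at 46.7, 27.4 and 30.3 FPKM (-0.75). FZD1 stayed near its level at 25.7, 23.4 and 22.1 FPKM. FZD2 thus made up 36.4% of the summed frizzled level on chow and 30.6% in the cholesterol library, and FZD1 20.0% and 26.0%. FZD7 had 16.4, 10.1 and 13.1 FPKM. FZD8, whose annotated span is a short one on an unplaced scaffold, had 15.5, 9.996 and 9.56 FPKM.

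FZD4, the receptor through which Norrin acts on endothelium (chromosome 1, 129790800 to 129795550), had 15.2, 10.1 and 15.9 FPKM. Its genotype difference of 0.60 was the highest of the receptors, and 675 of all 11597 genes had a higher one. FZD6 had 5.88, 5.28 and 5.80 FPKM, with differences of -0.13 for the diet and 0.12 for the genotype. FZD5 went against the others on the diet, at 1.85, 2.57 and 3.19 FPKM.

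The co-receptors were among the more abundant members. LRP6 (chromosome 8, 27457035 to 27629548) had 40.0, 27.1 and 30.2 FPKM and LRP5 17.6, 14.2 and 17.1 FPKM. Both were lowest in the cholesterol library, by less than 2-fold (-0.54 and -0.29 for the diet). The summed frizzled level followed the same order of libraries, at 128.5, 89.7 and 100.9 FPKM.

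**Figure D3:**
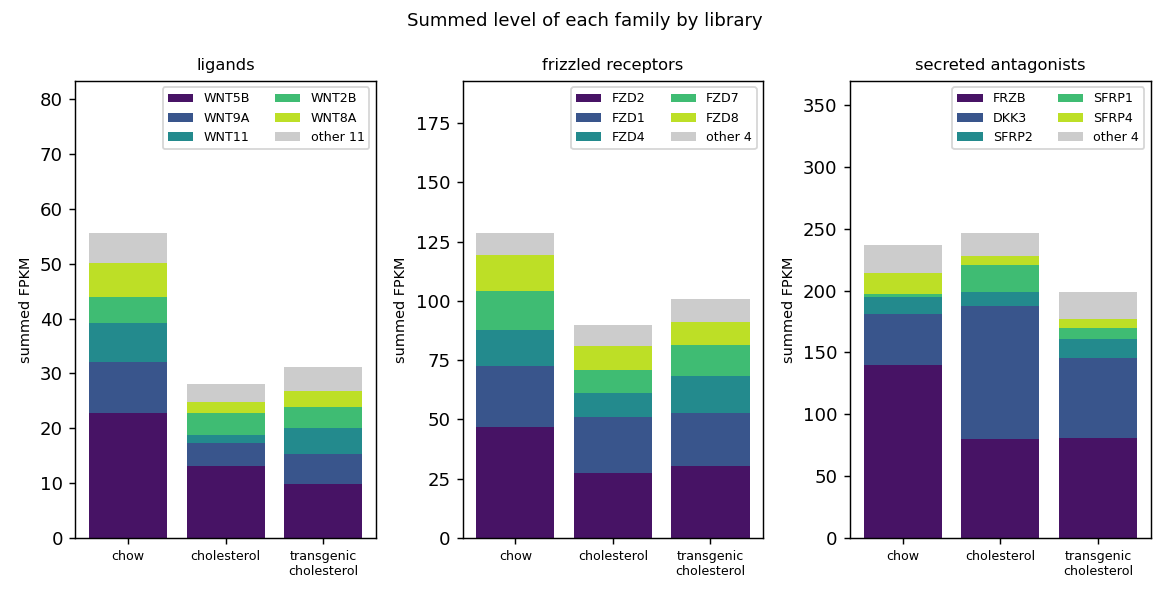
Summed FPKM of the 16 ligands, the 9 frizzled receptors and the 9 secreted antagonists in each pooled library; each bar is 1 library, the 5 genes with the highest mean are coloured and the rest are grey. The ligand and receptor sums are lowest in the cholesterol library, while among the antagonists the share of FRZB is smaller and that of DKK3 larger there than on chow.

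The secreted antagonists summed to 237, 246 and 199 FPKM, lowest in the transgenic library, and their makeup differed. Without DKK3 the sum would be lower in both cholesterol-fed libraries than on chow. FRZB (chromosome 7, 122923641 to 122969548) had 140.1, 79.8 and 80.5 FPKM and went from 59.2% of the summed level on chow to 32.4% in the cholesterol library. DKK3 (chromosome 1, 153711201 to 153755748), the divergent member of the Dickkopf family, had 41.2, 107.5 and 65.3 FPKM and went from 17.4% to 43.6%. DKK3 was highest in the cholesterol library and stood between in the transgenic one, with differences of 1.36 for the diet and -0.71 for the genotype.

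SFRP1 (on an unplaced scaffold) had 2.17, 22.1 and 8.46 FPKM. Its diet difference of 2.87 was the highest of the 30 genes, and 425 of all 11597 genes had a higher one. The genotype difference was -1.29, with 144 genes lower. The transgenic library was still 1.58 above chow, the only one of the 30 genes at least 2-fold higher in that comparison, where 12.6% of all genes were.

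Its relatives had other patterns. SFRP4 (chromosome 10, 21235153 to 21244530) had 16.9, 7.35 and 7.44 FPKM, lower in both cholesterol-fed libraries (-1.10 for the diet) with nearly the same value in each. SFRP5 (chromosome 18, 45921312 to 45925049) had 2.99, 0.90 and 3.72 FPKM, low in the cholesterol library alone, with differences of -1.07 for the diet and 1.31 for the genotype. SFRP2 had 13.9, 11.3 and 15.4 FPKM and stayed under 2-fold.

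DKK2 (chromosome 15, 42513832 to 42626632) had 9.69, 4.94 and 11.6 FPKM. It was lowest in the cholesterol library, with differences of -0.85 for the diet and 1.08 for the genotype. WIF1, which binds Wnt ligands directly, had 9.85, 12.5 and 6.70 FPKM, and its genotype difference of -0.81 was under 2-fold. DKK1, the best known antagonist of LRP6, was near 0 throughout, at 0.07, 0.03 and 0.03 FPKM.

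Of the R-spondins, RSPO2 (chromosome 3, 123299271 to 123481430) was listed at 0 on chow, at 2.89 FPKM in the cholesterol library and at 0.99 in the transgenic one. It passed the minimum only through the cholesterol-fed libraries, and no ratio to chow is given. RSPO3 had 1.87, 1.21 and 1.55 FPKM and RSPO1 0.59, 0.54 and 0.98 FPKM, with no 2-fold difference in either comparison. LGR4 and LGR6, receptors for R-spondins taken from the list of further receptors, had 28.7, 11.8 and 15.6 FPKM and 16.5, 7.19 and 11.3 FPKM, and LGR5 was at 0.03, 0.04 and 0 FPKM; LGR5 and LGR6 were chosen after their values were seen.

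Inside the cell, CTNNB1 itself (chromosome 9, 2775861 to 2788164) differed little, at 187, 156 and 163 FPKM. AXIN1, the scaffold of the complex that degrades beta-catenin, had 39.4, 26.1 and 31.2 FPKM. AXIN2 (chromosome 19, 51720856 to 51747920) had 8.88, 3.45 and 4.94 FPKM, a diet difference of -1.15 and a genotype difference of 0.42. TCF7L2, a TCF factor, had 17.5, 15.3 and 20.8 FPKM. TCF7L1, from the list of nuclear cofactors, was close to it on chow and lower on the diet, at 16.6, 8.84 and 11.4 FPKM (-0.84). TCF7L1 was chosen after its values were seen.

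LEF1 (chromosome 15, 41363490 to 41501219) had 2.30, 5.34 and 2.11 FPKM, high in the cholesterol library alone. The genotype difference was -1.03. LEF1 is also made by lymphocytes: all 6 T cell markers found were highest in the cholesterol library, as LEF1 was, and their summed level was 5.36, 9.18 and 4.27 FPKM, with none at 0. CD3E, a part of the T cell receptor complex, had 2.20, 2.81 and 1.13 FPKM, LCK, a kinase of T cells, 1.36, 1.97 and 1.01, and CD4, a co-receptor, 1.08, 1.43 and 1.15. The surface proteins CD2 and CD5 had 0.15, 1.24 and 0.49 FPKM and 0.46, 1.52 and 0.38 FPKM, and CD3G had 0.10, 0.21 and 0.11. Of the 6, 3 averaged 1 FPKM or more, and none of these 3 differed 2-fold on the log2(FPKM + 1) scale in either comparison. That scale shrinks low genes such as CD3E, which had a genotype difference of -0.84. The part of T cells in the LEF1 values was not tested.

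Genes commonly cited as transcriptional targets of the pathway, from a list of 26 names of which 17 were found and 13 averaged 1 FPKM or more, split on the diet. At least 2-fold lower were 4 (BAMBI, APCDD1, NKD1 and ZNRF3) and at least 2-fold higher 3 (CD44, WISP1 and MYC), and the median was 0.04. For this and every later list, the shares of all genes are 15.9% higher and 6.99% lower on the diet. By genotype they are 1.7% and 2.1%. Among the lower ones, APCDD1 binds Wnt and LRP proteins, NKD1 binds Dishevelled, ZNRF3 removes frizzled receptors from the membrane, and BAMBI is a decoy receptor of the TGF-beta family. ZNRF3, MYC and WISP1 are named here after their values were seen. APCDD1, NKD1 and ZNRF3 are each on another list below too and are counted again there, so the lists are not independent.

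APCDD1 had 72.8, 23.1 and 31.9 FPKM, NKD1 85.7, 30.3 and 41.5, and ZNRF3 27.9, 13.4 and 18.6. These 3 had the order of libraries seen for AXIN2: highest on chow, lowest in the cholesterol library, with genotype differences of 0.45, 0.44 and 0.44. The order is not particular to them. BAMBI, TNFRSF19 of the same list (7.44, 3.41 and 4.94 FPKM) and all 9 contractile smooth muscle markers found had it too. BAMBI had 129, 38.7 and 111 FPKM, and was the 1 gene of the list at least 2-fold higher by genotype.

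CD44, an adhesion receptor also abundant on leukocytes, had 33.7, 155 and 96.7 FPKM. MYC, the growth regulator, had 17.4, 39.8 and 32.5 FPKM. WISP1, a matricellular protein, had 3.13, 8.79 and 3.70 FPKM, and its genotype difference of -1.06 was the 1 at least 2-fold lower.

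**Figure D4:**
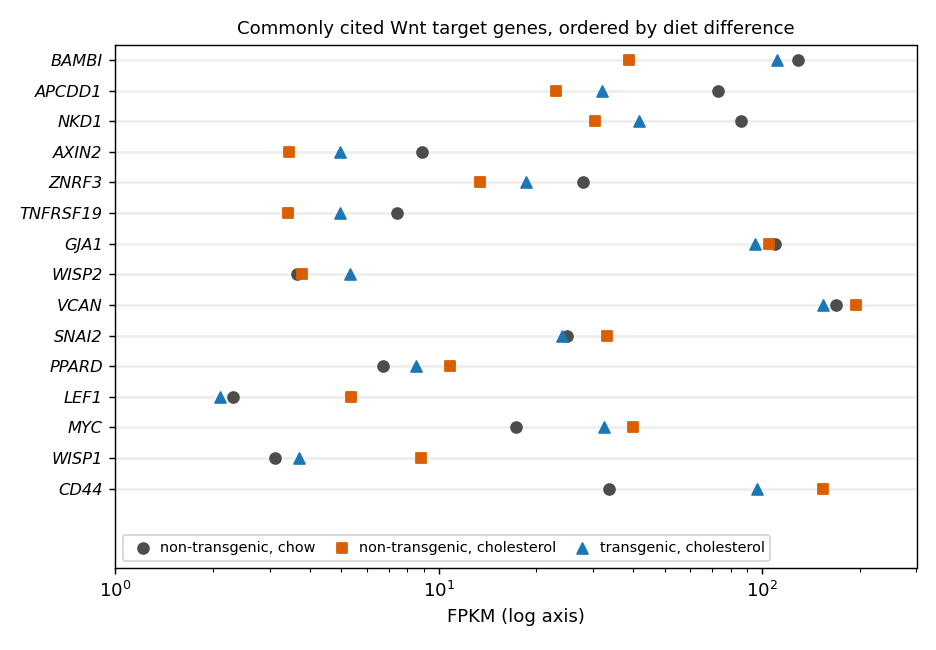
Level of 13 commonly cited target genes averaging 1 FPKM or more, with AXIN2 and LEF1 added, in each pooled library (FPKM, log axis), ordered by diet difference from the lowest at the top. BAMBI, APCDD1, NKD1, AXIN2 and ZNRF3 lie at least 2-fold lower in the cholesterol library than on chow, and CD44, WISP1 and MYC at least 2-fold higher.

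In the list of Wnt secretion and further receptors, 21 of 22 names were found and 17 averaged 1 FPKM or more. On the diet 5 were at least 2-fold lower (GPC3, PORCN, LGR4, LGR6 and ZNRF3) and 1 higher (LRP4), with a median of -0.60. PORCN, the enzyme that attaches the lipid without which Wnt proteins are not secreted, had 6.45, 2.10 and 4.26 FPKM. GPC3, a cell surface proteoglycan that binds Wnt, had 12.4, 1.98 and 4.41 FPKM. LRP4, a receptor of the LRP family known as a partner of sclerostin, had 4.73, 18.1 and 17.8 FPKM. None of the 17 differed 2-fold by genotype on the log2(FPKM + 1) scale, which shrinks low genes. GPC3 and PORCN had genotype differences of 0.86 and 0.76 there, and of 1.12 and 0.99 with a pseudocount of 0.1. WLS, the carrier of Wnt proteins to the cell surface, had 46.3, 32.6 and 27.0 FPKM, and the receptor ROR2 of WNT5A had 14.6, 8.88 and 10.1 FPKM; WLS and ROR2 were chosen after their values were seen.

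Of 7 other extracellular modulators averaging 1 FPKM or more, 2 were at least 2-fold lower on the diet (SOST and APCDD1) and 2 higher (SULF2 and SERPINF1), with a median of -0.67. SOST, which encodes sclerostin, an inhibitor that binds LRP5 and LRP6, had 38.4, 10.4 and 24.9 FPKM. Its genotype difference of 1.18 was the 1 in the list of at least 2-fold. SULF2, which edits heparan sulfate, had 5.51, 15.8 and 8.86 FPKM, and SERPINF1, a secreted inhibitor of vessel growth that also binds LRP6, 24.8, 55.1 and 35.9 FPKM. SERPINF1 is also on the list of adventitial fibroblast markers.

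Of 19 genes of the destruction complex and signal transducers, NKD1 was the 1 at least 2-fold lower on the diet, none was higher, and the median was -0.27. None of 13 nuclear cofactors differed 2-fold on the log2(FPKM + 1) scale, with a median of -0.44 and a lowest value of -0.95 on the diet. The kinase GSK3B, which phosphorylates beta-catenin, had 19.1, 17.9 and 18.4 FPKM, and APC, its partner in the complex, 16.0, 17.5 and 16.4; both were chosen after their values were seen. No gene of these 2 lists differed 2-fold by genotype, and their medians were 0.04 and 0.13.

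**Figure D5:**
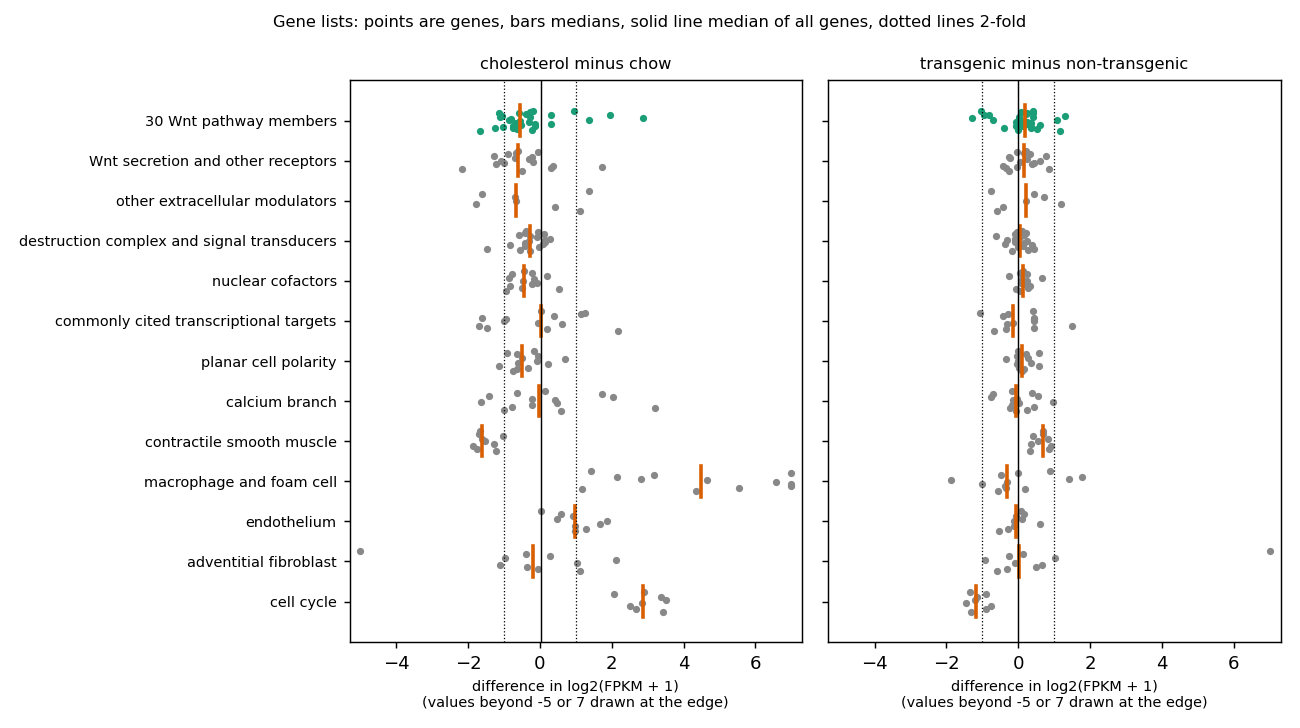
Differences in log2(FPKM + 1) of the 30 genes, of 7 lists of further pathway genes and of 5 marker lists, for the diet on the left and the genotype on the right; points are genes averaging 1 FPKM or more, orange bars are medians, the solid line is the median of all genes and dotted lines mark 2-fold. The 30 genes centre at -0.54 on the left, where all genes centre at 0.02. There the contractile smooth muscle markers centre at -1.61, adventitial fibroblast at -0.205, endothelium at 0.96, cell cycle at 2.86 and macrophage at 4.49.

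Marker genes also differed between the libraries, and the direction on the diet was not the same for every list. All 9 contractile smooth muscle markers found were at least 2-fold lower on the diet (median -1.61) and none differed 2-fold by genotype (median 0.70). Each of 12 macrophage markers, foam cells included, was higher by 2-fold or more with cholesterol (median 4.49), with a summed level of 56.0, 4664 and 4138 FPKM; MMP12 was listed at 0 on chow and ITGAM and MSR1 were at 0.16 and 0.38, and by genotype 2 were at least 2-fold higher and 1 lower. Each of 8 cell cycle genes was higher by 2-fold or more with cholesterol, and 5 were lower by as much in the transgenic than in the cholesterol library, with a summed level of 2.01, 71.7 and 27.6 FPKM. All 8 lay between 0 (BUB1) and 0.43 FPKM (RRM2) on chow, so they passed the minimum through the cholesterol-fed libraries and their diet count follows in large part from that. MMP12, ITGAM and MSR1 also passed only through those libraries.

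Endothelial markers had 3 of 9 at least 2-fold higher on the diet, none lower, and a summed level of 69.2, 153 and 164 FPKM. Of 10 adventitial fibroblast markers, 3 were at least 2-fold higher and 2 lower, with a summed level of 1208, 1023 and 1225 FPKM. PI16, listed at 411, 0 and 298 FPKM, sets the order of this sum. Without PI16 the sum would be highest in the cholesterol library. Schwann cell and nerve markers had 4 of 7 at least 2-fold lower and none higher, with S100B listed at 0 in the cholesterol library. Among the cartilage and bone markers, 1 of the 4 averaging 1 FPKM or more (SPP1, which macrophages also make) was at least 2-fold higher; BGLAP was listed at 0 in the transgenic library. Of 7 immediate early genes, which respond to tissue handling, 3 were higher by 2-fold or more with cholesterol (ATF3, FOSB and NR4A1), 4 by genotype and 5 in the transgenic library against chow, none was 2-fold lower in any of these, and the summed level was 781, 923 and 2185 FPKM. The part of each of these in the values of the Wnt genes was not tested.

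Genotype, diet and lane all differ between the transgenic library and chow. There 1 of the 30 genes (SFRP1) was at least 2-fold higher, where 12.6% of all genes were. At least 2-fold lower were 2 (WNT5B and SFRP4), where 2.53% of all genes were. The median was -0.20, and that of all genes 0.01. This comparison shares a library with each of the others.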

How the data were processed

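Polyadenylated RNA of the aortic media, pooled from 5 rabbits per group, was made into TruSeq libraries, per the labels' protocols. The deposited values are FPKM made by the authors, per the file headers; OryCun2.0 is the build named in the submitters' processing notes. The aligner and the FPKM program were not given in the sources used here. Both other sheets were not used.

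The main table has 15249 rows, of which 15248 are rabbit genes; a row was matched by any symbol in its symbol field. Differences of log2(FPKM + 1) were counted at 1 or more over 11597 genes averaging 1 FPKM or more, of which 291 were listed at 0 in some library. With 1 library per group there was no test. Relative depth came from genes under 0.1 FPKM in both libraries: 161 of 204 and 160 of 203 lay within 1% of a ratio of whole numbers up to 3. The functions were tested on simulated data (Python 3.11.15, numpy 2.4.6, pandas 2.3.3).

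The members and lists were chosen with earlier results of these data known. Values were given for each member averaging 1 FPKM or more, and for up to 4 genes of each of 7 further pathway lists that differed at least 2-fold for diet or genotype; further genes of these lists, single markers and single members under 1 FPKM were named after their values were seen. Alternatives were a pseudocount of 0.1 or 5, no minimum or a mean of at least 5 FPKM, 2 rescalings of the libraries, and leaving out genes listed at 0.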

Additional observations from a re-analysis of the deposited data

How the results depend on the processing

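Both rescalings kept each 2-fold call of the 30 genes in the 3 comparisons, and moved the median of all genes by less than 0.1. A pseudocount of 5 shrinks low genes by construction: for the diet 0 of the 30 were then 2-fold lower (median -0.34; all genes 1118 higher and 413 lower) and SFRP1 and DKK3 kept their call; for the genotype 0 were higher and 1, SFRP1, lower (all genes 75 and 96); for transgenic against chow 0 were higher and 0 lower (all genes 817 and 138). A pseudocount of 0.1 added LEF1 to the diet calls and RSPO2 to the genotype calls (all genes 323 higher by genotype), and against chow gave 2 genes higher (RSPO2 added) and 3 lower (WNT8A added) in the transgenic library. A minimum mean of 5 FPKM left 21 of the 30 genes and 8969 of all genes. On the diet 2 of the 21 were then higher and 3 lower (all genes 1275 and 618). By genotype 1 was higher and 1 lower (all genes 117 and 118). Between the transgenic library and chow 1 was higher and 2 lower (all genes 1038 and 193). With no minimum the diet median was -0.29. Without genes listed at 0, RSPO2 left the diet calls, and 160 of all 11306 remaining genes were lower by genotype. No single-gene call changed direction under any of these alternatives. No paired analysis was possible because each group has 1 library, and for the same reason no replicate could be left out. Values under about 1 FPKM rest on few fragments, and 1 pooled library gives no spread between animals.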

Other observations

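Of the genes linked to Wnt signalling without beta-catenin, the planar cell polarity list had 13 genes averaging 1 FPKM or more, and 1 of them, ROCK1, a kinase of the actin cytoskeleton, was at least 2-fold lower on the diet (158, 72.1 and 107 FPKM in the chow, cholesterol and transgenic library). None was higher, and the median was -0.51. None differed 2-fold by genotype (median 0.11).

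In the calcium branch, 3 of 14 genes were higher by 2-fold or more with cholesterol (PLCB2, NFATC2 and PRKCB) and 3 lower (PLCB4, CAMK2G and PPP3CC), with a median of -0.03. PLCB2 and PRKCB were under 1 FPKM on chow, so they passed the minimum through the cholesterol-fed libraries, and the count of higher genes rests in part on that. PLCB2, a phospholipase best known from blood cells, had 0.99, 17.4 and 14.8 FPKM, while its relative PLCB4 had 76.8, 23.8 and 47.7 FPKM. PRKCB and NFATC2, both known from lymphoid and myeloid cells, had 0.25, 3.14 and 1.56 FPKM and 1.07, 7.42 and 3.94 FPKM. CAMK2G, a calcium-dependent kinase of smooth muscle, had 131, 48.2 and 71.3 FPKM. None of the 14 differed 2-fold by genotype on the log2(FPKM + 1) scale (median -0.05), where PLCB4 had 0.97 and PRKCB -0.69. CAMK2G and PPP3CC were named after their values were seen.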
